A study of Homo sapiens with 2 samples.

Results

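The cells described here are 1250 mitotic progenitors from the day 160 library of an astrocyte differentiation, 12.5% (11.9 to 13.2) of the 9972 day 160 cells that passed the filters and part of 10496 passing cells in both libraries. The share depended on the filter, at 20.4% with a mitochondrial limit of 10% and 18.9% among cells of 10000 UMIs or more. A cell was a member when it had at least 1 UMI (a unique molecular identifier, standing for 1 captured RNA molecule) of each of MKI67, TOP2A and UBE2C and fewer than 5 UMIs of CRABP1, a cytosolic retinoic acid-binding protein. The levels of these 4 genes therefore chose the cells, and they are given below as a description only. The intervals in parentheses are exact 95% intervals and cover counting error alone, since UMIs of a library say nothing of the spread between cultures.

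The study profiled astrocyte progenitors made from H7, an established human embryonic stem cell line, by droplet-based single-cell RNA sequencing of transcript 3′ ends. Cultures were exposed to the cytokine LIF and to the growth factors BMP4 and FGF1, and Accutase was used to make single cells. The day 160 group and the day 220 group each consisted of 1 library, and each library combined 3 independent differentiations that no label separates. All values below therefore compare cells within a library, or describe the libraries side by side, and none carries a test between conditions. The protocol text of the day 220 library names day 160, while its title and time point give day 220.

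A dividing cell copies its DNA in S phase and separates the copies in mitosis. Entry into mitosis is driven by the kinase CDK1 with its B-type cyclins, and exit requires the anaphase-promoting complex (APC/C), a ubiquitin ligase that marks cyclin B and securin for destruction once its activator CDC20 is released from the spindle checkpoint. UBE2C is the enzyme that starts the ubiquitin chains, MKI67 (the Ki-67 antigen) coats mitotic chromosomes and TOP2A untangles sister DNA. In the developing forebrain such divisions take place in radial glia and in intermediate progenitors, which give rise to neurons and then to astrocytes and oligodendrocytes.

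The same library supplied 3 comparison groups. The 5371 non-dividing cells (53.9% of passing cells) had no UMI of MKI67, TOP2A, UBE2C, TYMS or PCLAF. The 353 CRABP1-high mitotic cells met the same mitotic rule with 5 or more UMIs of CRABP1. The 509 S-phase cells had a UMI of the replication genes TYMS and PCLAF, none of UBE2C and fewer than 5 of CRABP1. These S-phase cells belong to the 2998 passing cells with a UMI of at least 1 of the 5 cell-cycle genes that met neither mitotic rule. Members had a median of 13763.5 UMIs (1643 to 123210) and 4049 genes per cell, non-dividing cells 8856 UMIs and 2927 genes, CRABP1-high mitotic cells 16487 UMIs and S-phase cells 10720 UMIs. Scrublet, which scores cells by their likeness to simulated pairs of cells, marked 138 members (11%), against 2.53% of non-dividing cells, 6.29% of S-phase cells and 23.2% of CRABP1-high mitotic cells. Leaving out the marked cells changed the side of the 2-fold limit for 0 of the 233 listed or ranked genes that passed it against non-dividing cells. The libraries shared 3 cell barcodes.

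Within the members, the genes of the rule spread widely from cell to cell. UBE2C (ENSG00000175063, chromosome 20, 45812576 to 45816957 on GRCh38) ranged from 1 to 91 UMIs per cell with a median of 8, and 128 members held exactly 1. MKI67 (ENSG00000148773, chromosome 10, 128096659 to 128126385) ranged from 1 to 48 with a median of 7, and 107 members held exactly 1. TOP2A (ENSG00000131747, chromosome 17, 40388516 to 40417950) ranged from 1 to 188 with a median of 10, and 84 members held exactly 1. CRABP1 (ENSG00000166426, chromosome 15, 78340324 to 78348230) was at 0 in 997 members. The rule thus took in both cells at the edge of detection and cells with many molecules of each gene.

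CDC20 was a marker of these cells but no part of the rule, and a large share of the members had none of it. CDC20 (ENSG00000117399, chromosome 1, 43358955 to 43363203) ranged from 0 to 31 UMIs per member with a median of 2, and 382 members had none. It was detected in 69.4% of members (66.8 to 72.0) and in 77 of 5371 non-dividing cells, or 1.43%. With every cell thinned to 5000 UMIs, which removes the difference in depth, CDC20 was detected in 50.3% of members (47.5 to 53.1), 50.1% of CRABP1-high mitotic cells, 7.24% of S-phase cells and 0.684% of non-dividing cells. In the 95 neurons with 5 or more UMIs of the neuronal gene STMN2, taken as a rough measure of background, it was detected in 2 cells, or 2.11% (0.256 to 7.4). TYMS was detected in 9.47% of these neurons and TOP2A and MKI67 in 3.16% each. Whether some of them were dividing cells or doublets was not tested. The members did not differ from the CRABP1-high mitotic cells in the share with CDC20 beyond the counting intervals. CENPF, a kinetochore protein that rises before mitosis, was detected without thinning in 99.1% of members with a median of 13 UMIs (0 to 195), and HMGB2, a chromatin protein of dividing cells, in 99.5% with a median of 19 (0 to 85).

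**Figure D1:**
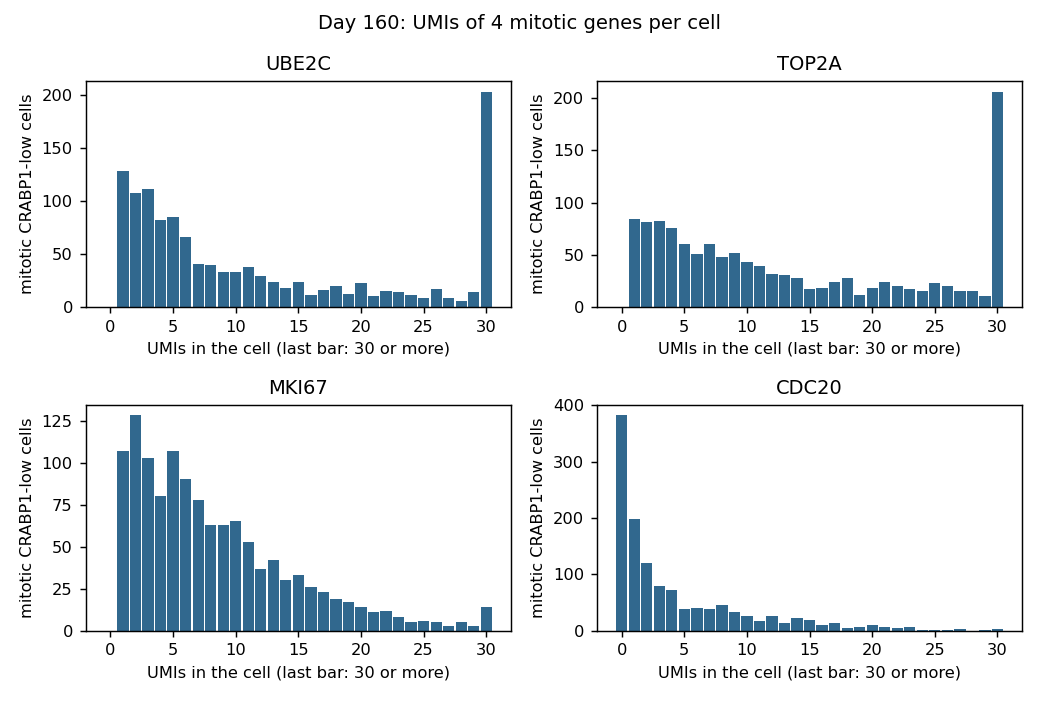
Histograms of UMIs per cell for mitotic genes in the 1250 members at day 160, with UMIs per cell on the horizontal axis and the number of members on the vertical axis, the last bar holding 30 UMIs or more. UBE2C, MKI67 and TOP2A start at 1 because the rule required it, while 382 members lie at 0 for CDC20.

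The members were broader than mitosis in the strict sense. TYMS and PCLAF, which peak in S phase and were not part of the rule, were both detected in 1061 members (84.9%), 1 of them was missing in 157 (12.6%), and both were at 0 in 32 (2.56%). The 1061 cells with both genes had 221 CPM of CDC20 (counts per 10⁶, UMIs of a gene scaled to all UMIs of the group) and the 157 cells with 1 of them 476 CPM. MCM5, a subunit of the replicative helicase, ran the other way, at 38.9 CPM in the 1061 cells and 15.4 CPM in the 157. CCNE2, the cyclin of S-phase entry, was at 35.2 CPM in the first and 1.29 CPM, or 3 UMIs, in the second. CDK1 differed little, at 556 and 516 CPM. The median depth of the 3 sets was 14278, 12127 and 6897.5 UMIs per cell, so the set without either gene also held the shallowest cells, and its 32 cells had 632 CPM of CCNB1 and 261 CPM of CDK1.

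Promoters are shown for some mitotic genes and some replication genes. Many mitotic genes are held silent in resting cells through a CHR element (TTTGAA) near the start site, whereas many replication genes carry E2F sites. The CCAAT box (CCAAT), bound by the activator NF-Y, is frequent near starts of both kinds. Sequences are from RefSeq on GRCh38.p14 and cover bases -200 to -1 before an annotated start, on the gene's own strand, 5′ to 3′. CDC20, CCNB2 (cyclin B2), PLK1 (Polo-like kinase) and MKI67 are mitotic genes, and capitals mark CHR elements and CCAAT boxes on either strand. CDC20 lies at chr1:43358781-43358980 on the plus strand, CCNB2 at chr15:59104946-59105145 on the plus strand, PLK1 at chr16:23678689-23678888 on the plus strand and MKI67 at chr10:128126424-128126623 on the minus strand. In MKI67 the last CHR element and the last CCAAT box, read on the other strand, overlap.
CDC20: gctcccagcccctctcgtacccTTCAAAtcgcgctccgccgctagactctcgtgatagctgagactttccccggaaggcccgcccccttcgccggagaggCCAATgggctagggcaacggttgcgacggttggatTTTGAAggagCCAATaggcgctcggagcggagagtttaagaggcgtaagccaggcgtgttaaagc
CCNB2: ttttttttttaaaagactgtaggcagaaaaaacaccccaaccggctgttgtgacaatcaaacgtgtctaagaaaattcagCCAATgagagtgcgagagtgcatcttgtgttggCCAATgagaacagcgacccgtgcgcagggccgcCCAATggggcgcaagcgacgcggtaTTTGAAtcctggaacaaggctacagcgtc
PLK1: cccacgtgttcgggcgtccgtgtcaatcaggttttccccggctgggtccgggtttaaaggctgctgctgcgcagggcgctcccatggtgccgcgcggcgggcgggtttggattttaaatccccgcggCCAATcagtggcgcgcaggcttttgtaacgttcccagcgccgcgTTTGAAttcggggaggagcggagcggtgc
MKI67: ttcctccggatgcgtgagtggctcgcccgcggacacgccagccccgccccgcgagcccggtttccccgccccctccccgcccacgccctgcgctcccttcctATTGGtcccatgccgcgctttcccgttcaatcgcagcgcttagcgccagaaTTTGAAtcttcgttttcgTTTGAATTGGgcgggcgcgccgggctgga
MCM6 (a helicase subunit, chr2:135876444-135876643, minus strand) and PCNA (the sliding clamp of DNA polymerase, chr20:5126623-5126822, minus strand) are replication genes, and capitals mark E2F sites, TTTNNCGC with C or G at each N, on either strand, which overlap in MCM6. RefSeq gives 2 starts for PCNA, and the stretch shown is the one with an E2F site, while the other window has 0.
MCM6: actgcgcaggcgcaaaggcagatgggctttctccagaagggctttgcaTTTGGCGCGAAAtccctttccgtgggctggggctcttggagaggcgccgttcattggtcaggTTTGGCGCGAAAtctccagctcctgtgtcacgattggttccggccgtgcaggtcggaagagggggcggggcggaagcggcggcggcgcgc
PCNA: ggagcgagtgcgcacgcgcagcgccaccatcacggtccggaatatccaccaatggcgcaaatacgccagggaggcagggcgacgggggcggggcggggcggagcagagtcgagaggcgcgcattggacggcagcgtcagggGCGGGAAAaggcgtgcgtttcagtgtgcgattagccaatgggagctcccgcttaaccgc
In windows from 250 bases before to 50 after each start, on both strands, the CHR letters were found in 63 of the 101 mitosis-list genes with a RefSeq promoter (62.4%), 4 of 39 replication genes (10.3%) and 4961 of all 27305 genes (18.2%). The CCAAT letters were found in 77 mitotic genes (76.2%), 25 replication genes (64.1%) and 39.7% of all genes. The E2F letters were found in 9 mitotic genes (8.91%), 21 replication genes (53.8%) and 1090 of all genes (3.99%). The CHR and CCAAT letters were not particular to mitotic genes. CHR letters were also found in 7 of 11 astrocyte genes (63.6%) and 4 of 9 HLA class II genes (44.4%). They were found in 1 of 10 neuronal precursor genes and 1 of 7 neuron genes. CCAAT letters were found in 45.5%, 88.9%, 80% and 85.7% of these 4 lists, in the same order. A match describes the letters in the window and is not evidence of binding in these cells.

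Against the non-dividing cells, the members had higher levels of nearly every listed component of the mitotic machinery, and lower levels of HLA class II, several astrocyte and neuronal genes and the posterior HOXB genes. Levels are UMIs summed over a group and scaled to CPM, and differences are log2 of the ratio of CPM + 1. A listed gene was measured where it reached 5 CPM in either group, and a list was given a median where 5 or more members were measured. Of 9020 genes with 10 CPM or more in either group, 629 (6.97%) reached 2-fold more in members and 173 (1.92%) 2-fold less, with a median log2 difference of 0.03 over all genes. Because the non-dividing cells were chosen for having no cell-cycle UMIs, the size of this contrast follows in part from the rule, and no count below is a test. Over 8 mitotic lists without MKI67, TOP2A and UBE2C, 103 of 114 measured genes exceeded 2-fold upward and 1 downward, and the median log2 difference was 4.66.

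**Figure D2:**
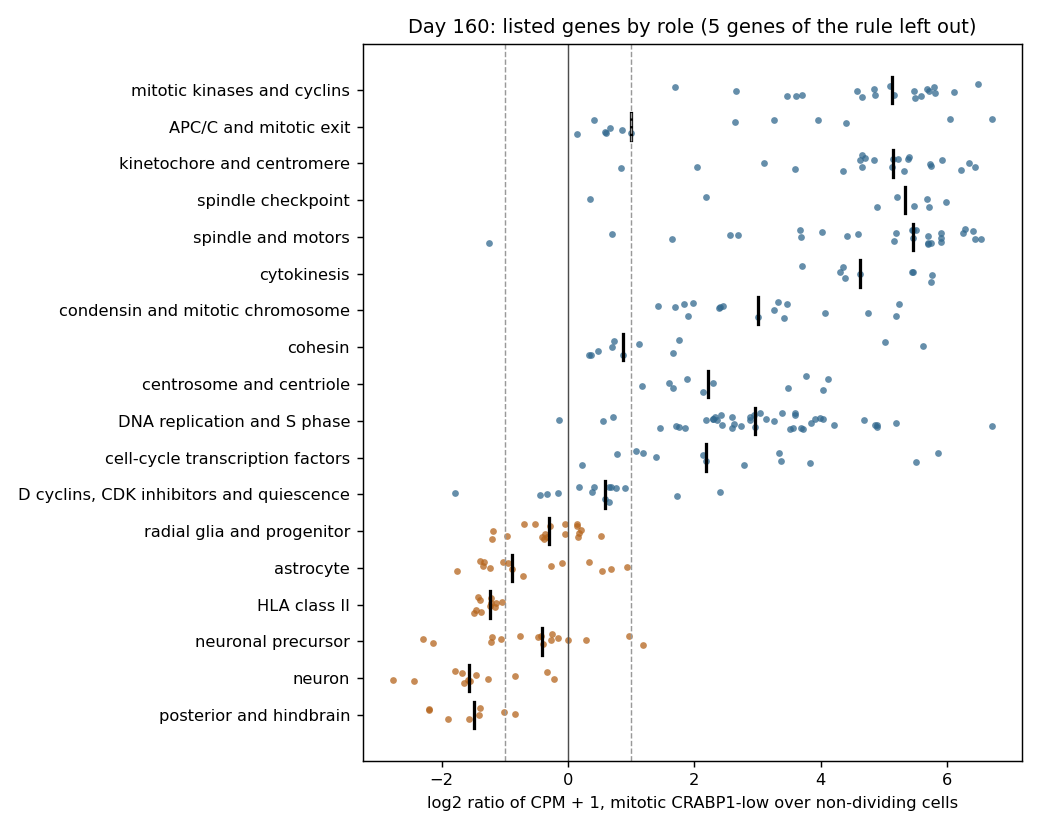
Log2 difference in CPM + 1 between members and non-dividing cells at day 160 for measured genes of the lists shown, grouped by role, with lines at 2-fold. MKI67, TOP2A, UBE2C, TYMS and PCLAF, which chose the cells, are left out. Most genes of the mitotic machinery lie far to the higher side. Below 0 lie all 11 genes of the HLA class II list, 12 of 12 neuron genes, 13 of 16 neuronal precursor genes and 11 of 15 astrocyte genes.

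The kinases and cyclins of mitotic entry were higher in all 20 measured genes, with a median log2 difference of 5.13. CCNB1 (cyclin B1) stood at 407 CPM (399 to 416) in members and 10.9 CPM (10.1 to 11.8) in non-dividing cells, 37.4-fold higher (34.4 to 40.6). Its catalytic partner CDK1 had 548 against 22 CPM. PLK1, which sets up spindle poles and promotes entry, had 150 against 2.13 CPM, 70.7-fold higher (59.0 to 85.4). AURKA, the spindle-pole Aurora kinase, had 110 against 2.09 CPM. The smallest difference of those named here was in WEE1, the kinase that holds CDK1 inactive, with 95.4 against 28.8 CPM, 3.31-fold higher. CDC25B and CDC25C, the phosphatases that undo WEE1's mark, had log2 differences of 2.66 and 4.85.

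In the destruction machinery, CDC20, securin and the ubiquitin-conjugating enzymes were higher, while the measured core subunits of the APC/C were under 2-fold. CDC20 had 251 CPM (245 to 258) against 1.39 CPM (1.11 to 1.73), 180-fold higher (145 to 228), on 5436 and 80 UMIs. PTTG1 (securin, the inhibitor of separase) had 845 against 38.8 CPM, 21.7-fold higher (20.8 to 22.7). ESPL1 (separase, which cuts cohesin) was low in both, at 18.1 and 0.23 CPM. UBE2S, which lengthens the ubiquitin chains that UBE2C starts, had 1177 against 188 CPM, and FBXO5 (EMI1, the interphase inhibitor of the APC/C) had 107 against 10.3 CPM. In all, 7 of 14 measured genes were at least 2-fold higher, UBE2C among them. The other 7 were under 2-fold: the core subunits CDC27 (log2 difference 0.99), ANAPC15 (0.67), ANAPC11 (0.61), CDC23 (0.58), ANAPC1 (0.41) and CDC16 (0.15), and the late activator FZR1 (0.85).

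At the kinetochore, the protein platform that ties chromosomes to the spindle, 21 of 22 genes were at least 2-fold higher, with a median of 5.14. CENPA, the histone variant that marks the centromere, had 136 CPM (131 to 141) against 0.679 CPM, 200-fold higher (146 to 282). CENPE, a motor that moves chromosomes to the spindle equator, was 88.8-fold higher (74.0 to 107), and CENPF had 1095 against 19.3 CPM, 56.7-fold higher (53.4 to 60.3). NDC80 and NUF2, partners in microtubule attachment, had log2 differences of 5.38 and 6.44. SKA2 was the exception at 0.85.

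In the spindle checkpoint, which holds CDC20 inactive until all chromosomes are attached, 7 of 8 genes were at least 2-fold higher, with a median of 5.34. MAD2L1, which binds CDC20, had 291 against 8.78 CPM and the kinase TTK 75.4 against 0.453 CPM. BUB3 had 236 against 51.4 CPM and MAD1L1, the exception, a log2 difference of 0.35. All 4 genes of the chromosomal passenger complex were higher. Among them BIRC5 (survivin) had 355 against 2.84 CPM, 125-fold higher (107 to 147), AURKB 127 against 0.854 CPM and the scaffold INCENP 37.0 against 1.81 CPM.

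Spindle and motor genes were higher in 26 of 28 cases, with a median of 5.47. NUSAP1, which bundles microtubules near chromosomes, had 633 against 5.85 CPM, 108-fold higher (97.1 to 121). ASPM, a spindle-pole protein, had 296 against 3.95 CPM, 74.7-fold higher (65.5 to 85.7). The motors KIF11, KIFC1 and KIF20A had log2 differences of 5.47, 6.44 and 5.74. PSRC1 was under 2-fold at 0.69. The tubulin TUBA1C was lower, at 2.68 against 7.72 CPM (log2 difference -1.24), and the difference was -0.39 where the comparison cells were also held to fewer than 5 CRABP1 UMIs. All 9 cytokinesis genes were higher, with a median of 4.63, among them ANLN at 58.4 against 3.54 CPM and CEP55, which acts in the final cut, at 78.7 against 0.47 CPM.

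All 19 condensin and mitotic chromosome genes were higher, but the rule fixed this for MKI67 and TOP2A, which are on that list. SMC2 and SMC4, the paired arms of condensin, had log2 differences of 4.07 and 3.27, and HMGB2 had 1232 against 32.6 CPM, 37.8-fold higher. H2AFZ, a histone variant, was abundant in both groups at 2547 and 479 CPM. Cohesin, which holds sister chromatids together, was higher in 5 of 11 genes. The ring subunits SMC1A, SMC3 and RAD21 and the S-phase cohesin factors ESCO2 (86.3 against 0.767 CPM) and CDCA5 were at least 2-fold higher, while STAG1 (0.88), STAG2 (0.34), NIPBL (0.37) and 3 others were under 2-fold. Of 10 centrosome and centriole genes, 10 were higher, with a median of 2.22, including PLK4, the kinase of centriole duplication, at 4.03.

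Genes in which inherited loss causes primary microcephaly, a small brain at birth, overlap these lists. Of 18 such genes 17 were at least 2-fold higher, with a median of 3.63. ASPM is given above, WDR62 had a log2 difference of 4.11 and CDK5RAP2 1.88. MCPH1 was the exception at 0.15.

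Replication genes were also higher. Without TYMS and PCLAF, which chose the comparison cells, 40 of 43 S-phase genes were at least 2-fold higher, with a median of 2.97. RRM2, which makes deoxynucleotides, had 230 against 1.20 CPM, PCNA 252 against 45.9 CPM and the helicase subunit MCM6 42.2 against 11.8 CPM. UNG, a DNA repair enzyme, had 14.7 against 16.3 CPM and was the lowest of the list. Among transcription factors of the cell cycle, 11 of 13 were higher. FOXM1, an activator of mitotic genes, had 100 against 1.22 CPM, 82.2-fold higher, and its partner MYBL2 118 against 1.05 CPM. E2F1, an activator of replication genes, had 65.4 against 8.64 CPM. The brakes RB1 and RBL2 had log2 differences of 0.77 and 0.22.

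Among D cyclins and CDK inhibitors, 12 of 15 measured genes stayed within 2-fold, and the median was 0.59. The genes that were higher encode inhibitors of CDK4 and CDK6. CDKN2C (p18) had 165 against 30.3 CPM, 5.44-fold higher (5.13 to 5.76), and CDKN2D (p19) 89.1 against 26.4 CPM, 3.38-fold higher. After thinning, CDKN2C was detected in 51.1% of members, 13.0% of non-dividing cells and 20.3% of S-phase cells. The lower gene was CDKN1C (p57), at 2.82 against 12.3 CPM, a level 4.35-fold lower (3.34 to 5.74), with a log2 difference of -0.76 where the comparison cells were held to fewer than 5 CRABP1 UMIs. CDK4 itself had a log2 difference of 0.59 and CCND2 of 0.17. CCND1 (cyclin D1) had 16 against 8.05 CPM (0.91). Its direction turned to -0.71 with at most 10% mitochondrial UMIs and to -0.87 with groups chosen anew after thinning.

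In identity, several stem-cell genes of radial glia differed little between members and non-dividing cells. SOX2, a transcription factor of neural stem cells, had 1064 against 964 CPM and was detected in 99.5% of members. The intermediate filament VIM had 6869 against 7126 CPM, and PAX6, a forebrain progenitor factor, 194 against 135 CPM. Downward, 2 of 18 radial glia genes passed 2-fold, and upward 0 did. FABP7, a fatty acid-binding protein of radial glia, was 2.27-fold lower (2.24 to 2.30), and HOPX, a marker of outer radial glia, 2.30-fold lower (2.23 to 2.38).

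Members had at least 2-fold less of 6 of the 15 measured astrocyte genes and 2-fold more of 0, and the median was -0.89. GFAP, the astrocyte intermediate filament, had 279 against 706 CPM, 2.53-fold lower (2.46 to 2.60), and S100B 102 against 209 CPM. CLU and APOE, secreted lipid carriers, were 2.35-fold and 3.64-fold lower, and the water channel AQP4 had 2.08 against 7.12 CPM. SLC1A2, a glutamate transporter, ran the other way with 34.0 against 17.3 CPM. Detection differed too: after thinning, GFAP was found in 39.6% of members, 53.6% of non-dividing cells and 23.2% of the STMN2-positive neurons. With cells of 10000 UMIs or more in both groups, 8 astrocyte genes were lower, 2 were higher and the median was -1.28.

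All 11 genes of the HLA class II list were at least 2-fold lower in members, with log2 differences from -1.48 to -1.04. The list holds HLA genes, which present antigen, with their chaperone CD74 and their activator CIITA. All of these are counted as class II genes here. HLA-DRA (chromosome 6, 32439842 to 32445046) had 344 CPM (337 to 352) against 951 CPM (943 to 959), 2.76-fold lower (2.69 to 2.83). CD74 had 172 against 379 CPM and CIITA 5.04 against 12.5 CPM. The HLA genes of this list share sequence, so counts of single HLA genes may be split between them. After thinning, HLA-DRA was detected in 25.8% of members (23.4 to 28.4) and 44.2% of non-dividing cells, against 18.9% (11.6 to 28.3) of STMN2-positive neurons, a background whose interval overlaps that of the members. Most members had 0 or 1 UMI of HLA-DRA and the highest had 266. The list was lower in 11 of 11 genes with the CRABP1-limited comparison cells (median -1.47) and with cells of 10000 UMIs or more (-1.68). Markers of microglia and blood, cells that carry class II in the brain, were near absent: 6 of 7 were at 0 in members, and their sum was 0.0463 CPM in members and 0.0174 in non-dividing cells. The sum over 5 endothelial markers was 0.555 and 0.279 CPM.

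**Figure D3:**
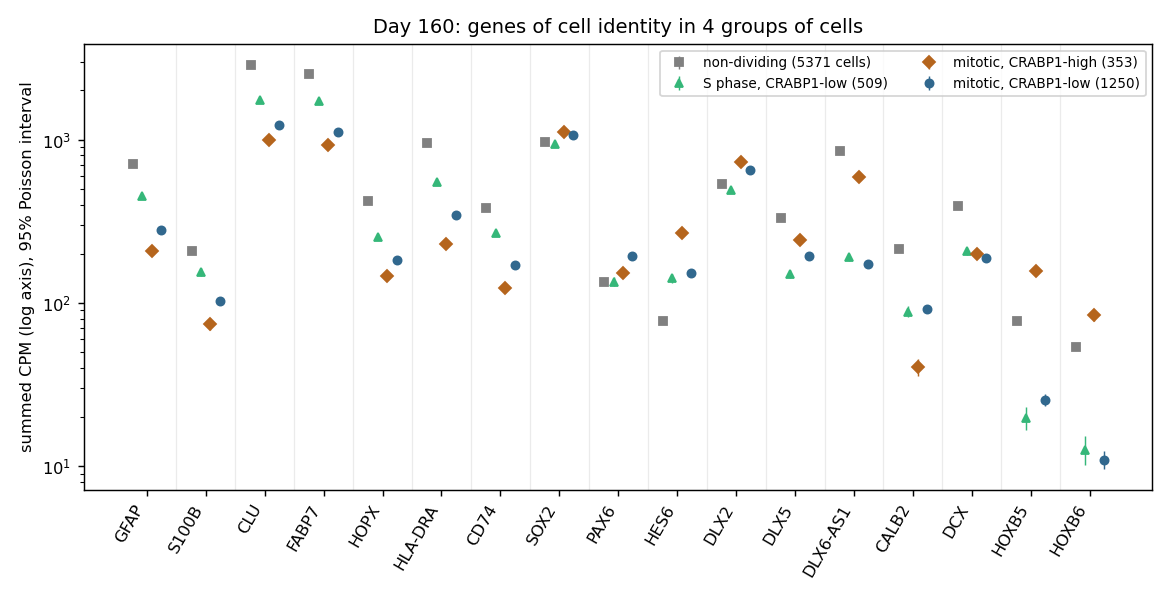
Levels in CPM, on a log axis, of identity genes in members, non-dividing cells, CRABP1-high mitotic cells and S-phase cells at day 160. HLA-DRA and GFAP are lower in both mitotic groups than in non-dividing cells, and HOXB5 and HOXB6 separate the mitotic groups by CRABP1.

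Neuronal precursor genes moved in different directions. HES6, a factor of neuronal progenitors, had 151 against 77.4 CPM, and DLX2, a factor of ventral forebrain progenitors and interneurons, 650 against 534 CPM. Downward, 5 of 16 measured genes passed 2-fold, and the median was -0.41. The lower genes included DLX6-AS1 (173 against 849 CPM, 4.92-fold lower), DCX (188 against 393 CPM) and the calcium-binding proteins CALB2 (91.1 against 213 CPM) and SCGN (12.5 against 58.3 CPM). DLX6-AS1 overlaps DLX6 on the other strand, and its count is uncertain because no source used here says whether counting used strand. With the groups chosen anew by the rules after thinning (891 and 5750 cells), the log2 difference was -0.86 for CALB2, -0.94 for DCX, -1.74 for SCGN and -2.23 for DLX6-AS1. In the original groups after thinning, CALB2 had a mean of 0.634 UMIs per member and 1.42 per non-dividing cell. The means were 1.18 and 2.53 for DCX, 0.0812 and 0.361 for SCGN, and 1.06 and 5.54 for DLX6-AS1. Among cells of 10000 UMIs or more, a selection of other cells, the log2 differences were 0.47, 0.0048, -0.03 and -1.13 in that order. There the list had 3 genes higher, 1 lower and a median of 0.51.

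Genes of mature neurons were lower in 9 of 12 cases, with a median of -1.56, among them STMN2 at 2.17 against 20.7 CPM. With the CRABP1-limited comparison cells 5 were lower (median -0.69), and with cells of 10000 UMIs or more 4 were (median -0.60). The posterior list, HOXB genes that mark hindbrain and spinal cord, was lower in 7 of 8 genes with a median of -1.49. HOXB6 had 10.9 against 54.0 CPM and HOXB5 25.4 against 77.3 CPM. This contrast rested on the CRABP1 limit. With comparison cells under the same limit 0 of 8 posterior genes were 2-fold lower, the median was -0.27, and HOXB6 had a log2 difference of -0.72. In the oligodendrocyte list OLIG1 was higher, at 10.9 against 4.36 CPM. In the contractile list CNN1 was higher, at 9.39 against 3.78 CPM, and the difference was -0.64 with at most 10% mitochondrial UMIs. Of 10 immediate early genes, which dissociation can induce, 0 were higher and 1 was lower (ZFP36, -1.29), with a median of -0.08. DPPA4, the 1 measured pluripotency gene, had a log2 difference of -0.31.

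The genes furthest apart in this contrast repeated these groups. After the 5 genes of the rules, the highest log2 differences were in CDC20, RRM2, BIRC5, NUSAP1, PBK, NUF2, KIFC1, DLGAP5, CENPA and GTSE1. Among the lowest were CRABP1, which the rule used, STMN2, SST, DLX6-AS1, GDAP1L1, HOXB6, HOXB8, LINC00599, SERPINA3, KLHL35, SCGN, HIST2H2BE and NSG1. SST encodes the interneuron peptide somatostatin (log2 difference -2.32) and SERPINA3 a protease inhibitor of reactive astrocytes (18.4 against 85.3 CPM). The SST difference rested on few cells, since it was detected in 1.12% of members and 1.73% of non-dividing cells.

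The members were not uniform in identity. After thinning, 778 of 1231 members had DLX2 without HLA-DRA, 138 had HLA-DRA without DLX2, 180 had both and 135 had neither. HLA-DRA was detected in 18.8% of members with DLX2 and 50.5% of those without, and GFAP in 31.4% and 68.5%. The same contrast was present in non-dividing cells, where HLA-DRA was detected in 29.6% of cells with DLX2 and 74.6% of those without. GFAP went with HLA-DRA, at 65.7% of members with HLA-DRA and 30.6% of those without. These are shares of cells within 1 library and carry no test.

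The share of mitotic cells was then taken within cells defined by a marker, among the 7266 cells that were low in CRABP1 after thinning. In this set 12.3% (11.5 to 13.0) met the mitotic rule. The share was 6.19% (5.39 to 7.06) of cells with HLA-DRA and 17.3% (16.1 to 18.5) of cells without it. For GFAP it was 8.10% and 17.8%, for S100B 7.35% and 17.0%, and for HOPX 8.48% and 15.2%. Cells with DLX2 were mitotic in 15.3% of cases (14.2 to 16.3) and cells without it in 6.81% (5.87 to 7.85), and PAX6 gave 14.8% and 9.66%. Cells with STMN2 were mitotic in 4.27% of cases (1.40 to 9.69), 5 cells of 117. The intervals overlapped between cells with and without HOXB6 (13.0% and 12.2%), CALB2 (10.4% and 12.7%), COL1A1, RAMP1 and SOX2. Free RNA can add a UMI of an abundant marker to a cell that does not express it, and its part in these shares was not tested.

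**Figure D4:**
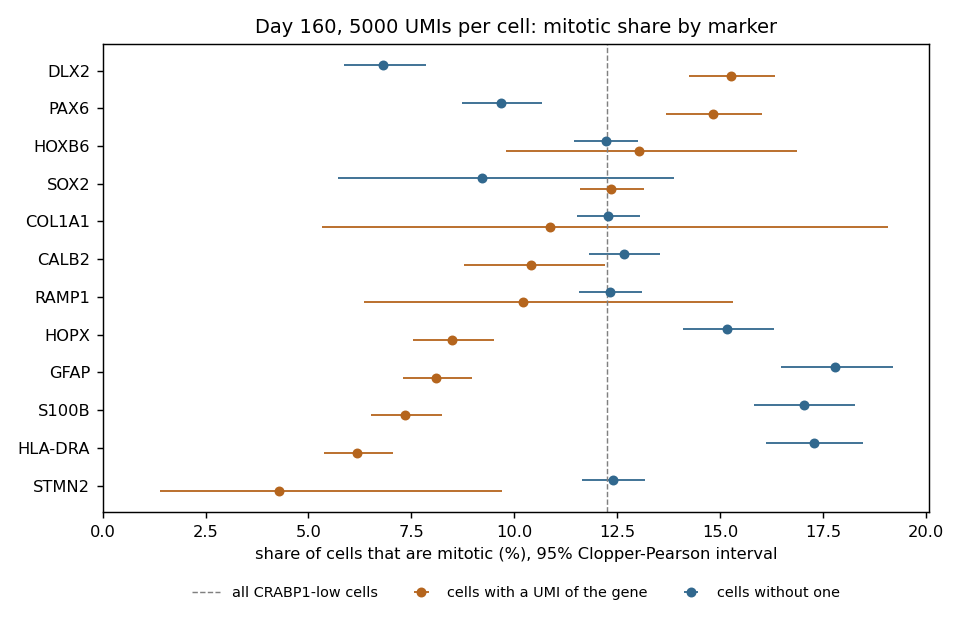
Percent of CRABP1-low day 160 cells that met the mitotic rule after thinning to 5000 UMIs, for cells with and without a UMI of each marker, with exact 95% intervals. The share is lower with HLA-DRA, GFAP, S100B and HOPX and higher with DLX2 and PAX6 than without them.

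Compared with the 353 CRABP1-high mitotic cells, the members stayed within 2-fold in nearly all mitotic genes and were lower in genes of posterior identity. Of 8916 genes, 13 (0.146%) reached 2-fold more in members and 99 (1.11%) 2-fold less. With the groups chosen anew after thinning (891 and 250 cells), 122 and 156 did. No more than 1 of 114 mitotic genes passed 2-fold (TUBA1C, at -1.03), and their median was 0.22, and of 43 S-phase genes 0 passed 2-fold in either direction. CDC20 had 251 against 202 CPM, 1.24-fold higher (1.18 to 1.32), and PLK1 150 against 123 CPM. All 9 measured posterior genes were lower in members, with a median of -2.48. HOXB6 had 10.9 against 83.9 CPM, 7.69-fold lower (6.61 to 8.97), and HOXB5 was 6.13-fold lower. Among the lowest genes were CRABP1, CABP7, HOXB8, SEZ6L, EFNA5, HOXB6, HOXB-AS3, LINC02381, STXBP6, HOXB5 and HOXB4. HOXB-AS3 lies antisense within the HOXB cluster, and its count is uncertain for the reason given for DLX6-AS1. RAMP1 (-2.19) and GPC3 (-1.56) were the radial glia genes that were lower. In the neuron list, 5 of 10 genes were lower, NEFL (-2.49) and NEFM (-2.24) most.

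Higher in members were OLIG1, an oligodendrocyte-lineage factor, with 10.9 against 1.5 CPM, 7.25-fold (3.98 to 14.7) on 11 UMIs in the CRABP1-high cells, VCAM1, an adhesion molecule of neural stem cells (78.7 against 27 CPM), CALB2, 2.26-fold (2.0 to 2.56), and the peptide NPY (145 against 69.5 CPM). The remaining genes of the 12 highest were GRIK3, PMP2, DMRTA2, TIMP3, ARHGAP29, GABRQ, KCNG1 and MGST1. DLX6-AS1 had 173 against 594 CPM. The 11 HLA class II genes stayed within 2-fold, with a median of 0.53, and HLA-DRA had 344 against 230 CPM. Scrublet marked 23.2% of the CRABP1-high cells and 11% of members, and leaving the marked cells out raised the count of higher genes from 13 to 31.

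Across the CRABP1 limit, HOXB5 and HOXB6 rose with CRABP1 up to 3 to 4 UMIs and changed less above that. The 997 members with no CRABP1 UMI had 15.5 CPM of HOXB5 and 5.97 CPM of HOXB6, and the 217 with 1 to 2 UMIs had 41.7 and 18.7 CPM. The 36 members just inside the limit, with 3 to 4 UMIs, had 148 CPM of HOXB5 and 73.8 of HOXB6. The 35 cells just outside, with 5 to 6 UMIs, had 111 and 67.9 CPM. The 52 cells with 7 to 10 UMIs had 143 and 75.4 CPM, and the 266 cells with 11 or more had 165 and 87.6 CPM. The members nearest the limit thus had levels like those of the cells just beyond it, and they made up 36 of 1250.

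Compared with the 509 S-phase cells, the members were higher in genes of mitosis and close to level in those of replication. Of 8927 genes, 259 (2.9%) reached 2-fold more in members and 22 (0.246%) 2-fold less. With the groups chosen anew after thinning the counts were 238 and 75, and with at most 10% mitochondrial UMIs 391 and 164. Over the mitotic lists 97 of 113 genes passed 2-fold upward and 0 downward, and the median was 2.22. UBE2C was absent from the S-phase cells by rule, and the members had to hold MKI67, TOP2A and UBE2C. The size of this contrast thus follows in part from the rules. PIF1, a DNA helicase, had 66.0 against 1.45 CPM, 45.6-fold higher (25.4 to 91.5). PLK1 was 20.4-fold higher (15.6 to 27), CDC20 13.1-fold higher (11.1 to 15.5) and CCNB1 8.31-fold higher. The others of the 12 highest were TOP2A, CDCA3, CENPE, DLGAP5, CENPA, FAM83D, KIF20A and AURKB. CDKN2D and CDKN2C were higher here as well, with log2 differences of 2.23 and 1.84.

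Of 43 replication genes 3 were higher than in S-phase cells (RRM2, ASF1B and RAD51AP1) and 3 lower, with a median of -0.11. Of the lower genes, MCM5 had 35.9 against 91.1 CPM, 2.54-fold lower (2.28 to 2.81), MCM6 42.2 against 95.8 CPM, and UNG 14.7 against 38.5 CPM, 2.62-fold lower (2.23 to 3.08). After thinning, MCM5 was detected in 15.4% of members, 37.2% of S-phase cells and 4.72% of non-dividing cells. E2F1 had 65.4 against 135 CPM and CCND1 16 against 52.6 CPM, 3.29-fold lower (2.84 to 3.81). The CCND1 levels rested on few cells, since it was detected in 6.32% of members and 8.64% of S-phase cells. HLA class II and neuronal precursor genes lay nearer to the S-phase cells, with 0 of 11 class II genes past 2-fold and medians of -0.67 and 0.14. The lowest genes were C6orf15, ACTG2, ANKRD1, CRYAB, IGFBP7, CCND1, COL1A1, FBXO32, UNG, MCM5, PTGDS and AL139246.5. C6orf15 rested on few cells: after thinning it was detected in 0.975% of the original members and 1.61% of the original S-phase cells. Their means were 0.0171 and 0.149 UMIs per thinned cell. With the groups chosen anew by the rules after thinning (891 and 471 cells), the log2 difference went from -3.25 to -0.34. For ACTG2, a smooth-muscle actin, it became 0.07 in the groups chosen anew, for ANKRD1 -0.28 and for IGFBP7 0.30. COL1A1 had a log2 difference of -1.41, and 0.81 where members and S-phase cells were held to no CRABP1 UMI.

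At day 220 the same rule found 27 cells, 5.15% (3.42 to 7.41) of 524, and 0 CRABP1-high mitotic cells. The day 220 cells were deeper, with medians of 55962 UMIs in the 27 and 37134 in 256 non-dividing cells, so shares were compared after thinning. Then 891 of 9279 day 160 cells met the rule (9.60%, 9.01 to 10.2) and 10 of 494 day 220 cells (2.02%, 0.975 to 3.69). With 1 library per time, the difference between days and a difference between cultures cannot be told apart. Of 10431 genes, 1030 (9.87%) reached 2-fold more in the 27 cells than in their non-dividing neighbours and 443 (4.25%) 2-fold less. In the 27 cells a single UMI is 0.602 CPM and 3 UMIs are 1.81 CPM, so low genes were poorly resolved there.

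The mitotic differences of day 160 were present at day 220, where the same rule chose the cells. Of the 615 genes higher in day 160 members and counted on both days, 572 (93.0%) passed 2-fold in the same direction at day 220 and 0 in the other, against 9.71% passing it upward among all 8684 genes counted on both days. The mitotic lists had 106 of 114 genes higher with a median of 5.10, and 43 of 43 replication genes were higher. CCNB1 had 237 against 7.24 CPM, 32.7-fold higher, and CDC20 113 against 0.503 CPM, on 187 and 5 UMIs. CDC20 was detected in 20 of 27 cells, with a median of 2 UMIs (0 to 30). CDKN2C was again higher, at 112 against 5.03 CPM. CCND1 was lower, at 4.81 against 29.1 CPM (-2.37).

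Against the 24 day 220 cells that met the S-phase rule, the 27 cells were higher in genes of mitosis and also of replication. Of 10465 genes, 1102 (10.5%) reached 2-fold more in the 27 cells and 517 (4.94%) 2-fold less. Mitotic genes were higher in 106 of 114 cases, but so were 41 of 43 replication genes, with a median of 2.32, where the day 160 median was -0.11. Of the 24 cells, 12 held exactly 1 UMI of PCLAF. Their replication list, TYMS and PCLAF included, summed to 1061 CPM. That sum was 4022 CPM in the day 160 S-phase cells and 370 CPM in the day 220 non-dividing cells. The day 160 and day 220 medians therefore rest on unlike S-phase groups. MCM5 had 46.3 against 25.2 CPM and RRM2 221 against 2.29 CPM, the latter on 3 UMIs. Of 11 HLA class II genes 9 were lower, with a median of -1.28, and HLA-DRA had 159 against 406 CPM, 2.54-fold lower (2.19 to 2.96). The highest cell held 230 HLA-DRA UMIs among the 27 and 306 among the 24, and both medians were 0. The cells of both groups are few and deep, with a median of 48547 UMIs in the 24, and the difference between days was not tested.

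Of the 125 genes that were lower in day 160 members and counted on both days, 53 (42.4%) were lower at day 220, against 2.81% of all genes, and 1 was higher (BST2, an interferon-induced membrane protein, with log2 differences of -1.44 and 1.26). At day 220, 6 of 13 astrocyte genes were lower, including S100B, 2.25-fold (2.02 to 2.50), APOE, 4.84-fold (3.74 to 6.37), CLU (-1.27) and SPARCL1 (21.1 against 196 CPM), and SLC1A2 was higher at 60.2 against 23.1 CPM, while GFAP had a log2 difference of -0.34. Of the radial glia genes at day 220, HES1 (79.4 against 37.1 CPM) and GLI3 (83.0 against 38.7 CPM) were higher and HES5 lower, at 4.81 against 57.3 CPM on 8 UMIs. HES1 and HES5 are Notch targets. Of 10 measured class II genes 0 passed 2-fold at day 220, with a median of 0.19, and HLA-DRA had 159 against 158 CPM. A single cell held 230 of the 265 HLA-DRA UMIs of the 27 cells, and their median was 0. The day 220 level of HLA-DRA in mitotic cells thus rested mainly on that cell. In the neuronal precursor list 4 of 16 genes were lower (DLX6-AS1, DCX, CALB2 and SCGN) and 0 higher. Whether these differences differ between days was not tested.

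**Figure D5:**
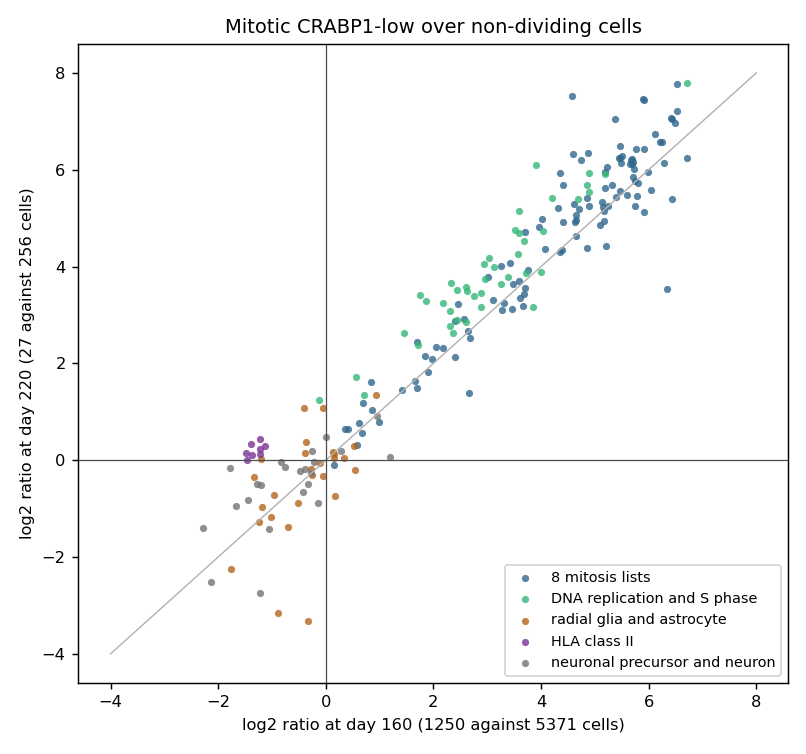
Log2 difference between mitotic CRABP1-low and non-dividing cells for listed genes at day 160 (horizontal axis, 1250 members) and day 220 (vertical axis, 27 cells), with lines at 0 and a diagonal of equal differences. Mitotic genes lie high on both axes, while HLA class II genes lie below 0 at day 160 and near 0 at day 220. At day 220 a single cell held 230 of the 265 HLA-DRA UMIs of the 27 cells.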

How the data were processed

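Raw UMI counts for each barcode were deposited by the authors, who used Cell Ranger (7.0.1 in the file headers). Processing notes of the submitters list Seurat 4, Cell Ranger 7 and the build hg38. Use of introns and strand in counting: not given in the sources used here. Barcodes passed with 1000 genes or more and at most 15% mitochondrial UMIs. The day 160 library had 13018 barcodes and 156737179 UMIs, and 9972 barcodes passed. The day 220 library had 676 barcodes and 29040529 UMIs, and 524 passed. Counts were summed per group of cells and scaled to CPM, and genes of 10 CPM or more in either group were counted past 2-fold with a pseudocount of 1 CPM. The ratio intervals are conditional binomial intervals of the CPM without a pseudocount, those of CPM are Poisson and those of shares are Clopper-Pearson. With 1 library per time point no p-value was computed. Python 3.11.15, numpy 2.4.6, scipy 1.17.1, pandas 2.3.3 and matplotlib 3.10.9 were used, with Scrublet in scanpy 1.11.5 at an expected rate of 0.06. Scrublet only marked cells, which stayed in the main values. In thinned values cells under 5000 UMIs were left out, 19 members and 545 non-dividing cells among them. Log2 differences and counts of genes after thinning used groups chosen anew by the rules, 891 members and 5750 non-dividing cells. Shares of members and comparison cells with a UMI of a gene after thinning used the original groups. CRABP1-low meant fewer than 2 UMIs where the rule was applied anew. The counting script was tested on simulated data.

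The members and the 27 gene lists were chosen with earlier results of these data known. Named genes were the 15 highest and 15 lowest against non-dividing cells, the 12 highest and lowest against the other groups, the markers and any listed gene. BST2, the promoter words for E2F and the setting with 10000 UMIs or more were chosen after values had been seen. Alternatives left out marked doublets, thinned the cells, or changed the rule, the filters, the pseudocount and the comparison cells. Some genes that meet the naming rule are not reported here.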

Additional observations from a re-analysis of the deposited data

Results flagged for a closer look

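Among the 3046 day 160 barcodes that failed the filters on genes or mitochondrial share, and which no comparison used, 107 met the same rule on MKI67, TOP2A, UBE2C and CRABP1. This is 3.51% (2.89 to 4.23) of them, against 12.5% of the barcodes that passed. No explanation was tested.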

How the results depend on the processing

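The share of day 160 members was 12.5%, and it was 11.8% without marked doublets, 10.2% with 2 or more UMIs of each mitotic gene, 20.4% with at most 10% mitochondrial UMIs, 9.60% after thinning, 10.0% with CRABP1 at 0 and 18.9% in cells of 10000 UMIs or more. At day 220 it was 5.15%, and 2.02% after thinning. Against non-dividing cells, 173 genes were lower, and 274 were after thinning, 59 with a pseudocount of 10 CPM, 287 with no filter on level and 60 from 50 CPM up, where 289 of the 629 higher genes were counted. Against CRABP1-high cells, 13 genes were higher, and 31 were without doublets, 49 with at most 10% mitochondrial UMIs, 122 after thinning, 2 with a pseudocount of 10 CPM, 37 with no filter, 4 from 50 CPM up and 24 by the mean of cells. The 99 lower genes became 156, 52, 199 and 30 after thinning, with a pseudocount of 10 CPM, with no filter and from 50 CPM up. Against S-phase cells, 259 genes were higher, and 391 were with at most 10% mitochondrial UMIs and 143 from 50 CPM up. The 22 lower genes became 34 with 2 or more UMIs, 164 with at most 10% mitochondrial UMIs, 75 after thinning, 10 with a pseudocount of 10 CPM, 61 with no filter, 9 from 50 CPM up, 37 without mitochondrial and ribosomal genes and 50 in cells of 10000 UMIs or more. The named differences past 2-fold that turned were those of CNN1 (-0.64) and IGFBP7 (2.79) with at most 10% mitochondrial UMIs, IGFBP7 (0.30) and ACTG2 (0.068) after thinning, COL1A1 (0.81) with CRABP1 at 0, and CALB2 (0.47) and DCX (0.0048) in cells of 10000 UMIs or more. CCND1, which was under 2-fold, turned to -0.71 with at most 10% mitochondrial UMIs and -0.87 after thinning. The cause was not tested. Of 233 listed or ranked genes past 2-fold against non-dividing cells, 203 stayed past it with a pseudocount of 10 CPM and 213 in cells of 10000 UMIs or more.

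No paired analysis was possible because each time point had 1 library. For the same reason no replicate was left out. The 27 day 220 members held 1661806 UMIs in all, against 21620188 in the day 160 members, which limits the precision of low genes there.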
